A study of Drosophila melanogaster with 30 samples.

Results

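The piRNA pathway genes are 35 genes of Drosophila melanogaster chosen by name, from their FlyBase symbols. No measured value entered this rule, although earlier results of these data were known when the genes were set. Of these, 34 had a row among the 16868 gene identifiers counted in each library, and vas, a germline helicase, was not analysed here. Poly(A) RNA was sequenced in 30 libraries, 2 for each of 15 groups that combine a tissue with a genotype. Females carried an added Y chromosome named Yohio (XXYohio) or Ycongo (XXYcongo) or no Y (XX), and males carried an added Yohio (XYYohio), an added Ycongo (XYYcongo) or a single Y (XY). The labels mark the X of every group, controls included, with a caret that they do not explain, and they describe the strains as the product of genetic manipulation. Ovaries, testes and whole bodies of both sexes were taken from adults of 2 days. The other tissue was the CNS, the central nervous system, of female larvae of the third instar, so stage differs between the CNS and the rest. The number of flies behind a library is not given, and the labels call the replicates biological without saying more, so a p-value measures the spread between libraries, which may be technical. The design poses the question of what an added Y changes, and it also allows the tissues to be compared over 6 libraries each.

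The pathway silences transposable elements in the animal germline with small RNAs, the piRNAs, that are bound by Argonaute proteins of the PIWI class. In the Drosophila ovary, precursor RNAs are transcribed from clusters of transposon remnants, exported to the nuage around the nucleus, cut and loaded at the nuage and at mitochondria, and used either to cleave transposon RNA in the cytoplasm or, with Piwi, to silence transposons in chromatin. Ovarian follicle cells run a simpler branch of it without the cytoplasmic amplification loop, and in testes piRNAs from Y-linked repeats are known to silence the X-linked Stellate genes. The 34 genes were grouped by role into 3 PIWI proteins, 6 genes of cluster transcription and export, 4 of transcriptional silencing, 9 of the nuage, 8 of the Yb body and mitochondria, 2 of the piRNA end and 2 that methylate arginines of PIWI proteins. In the Ensembl annotation of assembly BDGP6.54, 12 of the 35 genes lie on chromosome arm 2R, 11 on 2L, 6 on 3L, 4 on 3R and 2 on the X (moon and fs(1)Yb), with none on the Y. Of armi's exon bases 99.6% are shared with CG46463 on its own strand, and 42.4% of those of mino lie opposite other genes, so the counts of these genes are uncertain. Smaller overlaps touch boot (20.1% of exon bases, with Nadk2), nxf2 (22.0%, with mbf1 and a transposon insertion), squ (16.3%, with grp), Nbr (11.5%, with Pld3) and mael (11.5%, with CG14450 and CG14451).

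Total counts per library lay between 6026258 and 15363636, and 3 counts, the limit that a count of 0 allows, came to between 0.177 and 0.589 CPM, which covers counting error only. TMM factors fitted over all 30 libraries put these CPM, which are depth-scaled counts, on 1 scale. The tissues carried the markers of their labels: testis germline markers summed to between 3360 and 5350 CPM in testes and to at most 11.2 CPM in ovaries, CNS and female bodies, and neuroblast markers to between 333 and 493 CPM in the CNS and at most 5.01 CPM elsewhere. Testis libraries also held accessory gland RNA, with 4 secretory markers summing to between 30200 and 46900 CPM, against between 4700 and 11100 CPM in male bodies. The CNS libraries held fat body RNA, between 135 and 4210 CPM over 3 markers. The same markers summed to between 1980 and 3840 CPM in ovaries and between 8.96 and 31.9 CPM in testes. The share of counts from mitochondrially encoded genes differed between libraries of a tissue and lay between 1.81% and 12.79% in ovaries, 1.78% and 5.37% in testes, 5.21% and 33.49% in female bodies and 9.37% and 40.11% in male bodies.

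**Figure D1:**
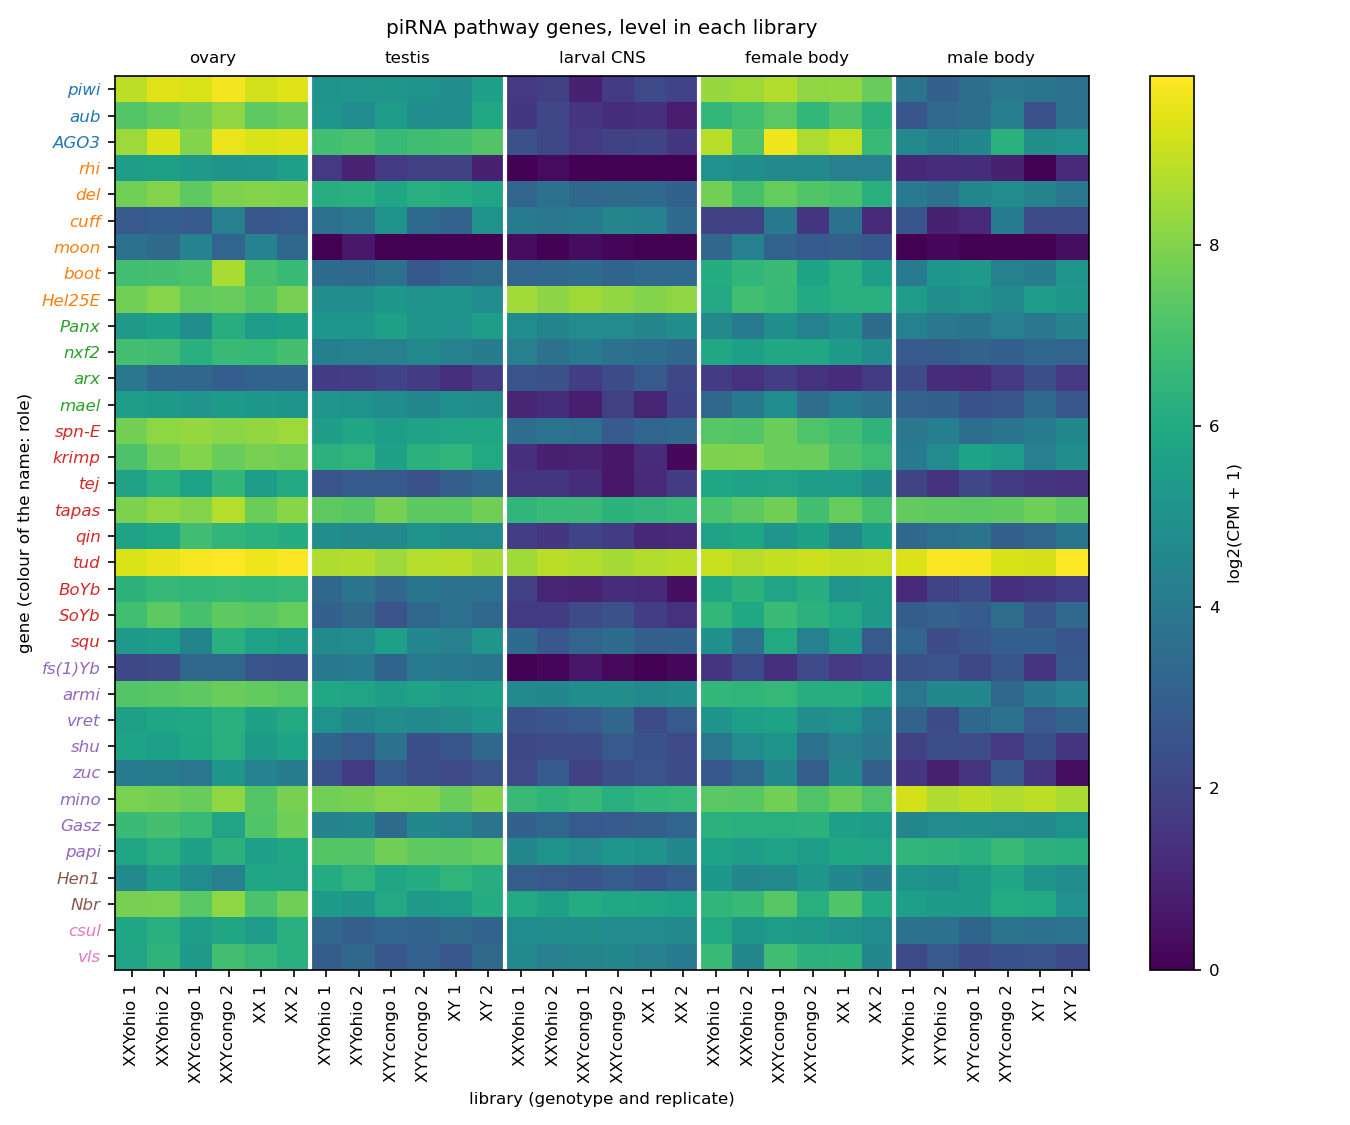
Level of each of the 34 genes, as log2(CPM + 1), in each of the 30 libraries, with genes in rows coloured by role and libraries in columns by tissue, genotype and replicate. The ovary columns are the brightest for 27 genes by median, and the CNS columns are near 0 for rhi, moon and fs(1)Yb.

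The ovary was the tissue with the highest median for 27 of the 34 genes. The exceptions were papi, Hen1 and fs(1)Yb with the highest median in testes, Hel25E and cuff in the CNS, mino in male bodies and vls in female bodies. The CNS had the lowest median for 20 genes. For 11 genes the 6 libraries of the highest tissue lay wholly above those of the next. Highest tissues and libraries without overlap were not counted over all genes, so these counts have no share to be set against.

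Levels per kilobase of exon put piwi first in the ovary, at a median of 214 CPM per kb, followed by AGO3 at 199 CPM per kb, Nbr at 93.7 CPM per kb and tud at 92.5 CPM per kb. At the low end of the ovary stood arx at 9.21 CPM per kb, cuff at 4.64 CPM per kb and fs(1)Yb at 1.37 CPM per kb. The order differed in the testis, where papi came first at 63.0 CPM per kb, followed by mino at 61.6 CPM per kb, tud at 47.5 CPM per kb and Hen1 at 43.7 CPM per kb. There piwi ranked 16 of 34 at 11.1 CPM per kb, and SoYb at 1.82, rhi at 1.37 and moon at 0 CPM per kb closed the list. The leading 2 genes were PIWI genes in the ovary and genes of mitochondrial proteins in the testis. The counts of mino, 1 of the leading 2 in the testis, are uncertain because of its exon overlap with other genes.

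Ovaries were compared with testes to ask how the pathway differs between the gonads. Of the 34 genes, 26 were higher in ovaries and 3 lower at an adjusted p below 0.05 by edgeR, where 29.6% of the 14384 genes tested were higher and 49.5% lower. At least 2-fold higher were 24 of them, against 23.4% of all genes, and all 3 lower ones were at least 2-fold lower, against 45.6%. The median log2 fold change was 2.15 over the 34 genes and -0.83 over all genes. Every ovary library lay above every testis library for 25 genes and below for 2, which was not counted over all genes. These are bulk libraries, so fewer cells of a type and less RNA per cell cannot be told apart. Female germline markers summed to between 4530 and 8400 CPM in ovaries and between 884 and 1280 CPM in testes, and the part that this or the accessory gland RNA plays in the differences was not tested.

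All 3 PIWI genes were higher in ovaries. The gene piwi (FBgn0004872, chromosome arm 2L, 10982205 to 10987420, minus strand), which encodes the nuclear PIWI protein, had between 473 and 824 CPM in ovaries with a median of 658, against between 27.4 and 46.3 CPM with a median of 34.0 in testes. The groups were far apart, and the median level in ovaries was 19.4 times that in testes (log2 fold change 4.19 ± 0.23 SE, edgeR adjusted p = 5.45e-13). The genes aub (2L, 10997819 to 11001476, minus strand) and AGO3 (3L, 23554593 to 23689640, plus strand) encode the cytoplasmic slicers that amplify piRNAs. The gene aub had between 148 and 297 CPM in ovaries with a median of 186, against between 27.1 and 59.7 CPM with a median of 32.2 in testes (log2 fold change 2.43 ± 0.27 SE, edgeR adjusted p = 4.37e-08). AGO3 had between 261 and 761 CPM in ovaries with a median of 633, against between 102 and 144 CPM with a median of 120 in testes (2.18 ± 0.38 SE, edgeR adjusted p = 1.92e-05). The groups did not overlap for either gene. In testes AGO3 was the most abundant PIWI mRNA, at a median of 37.8 CPM per kb, with piwi at 11.1 and aub at 10.7 CPM per kb. In ovaries piwi led, at 214 CPM per kb, with AGO3 at 199 and aub at 61.8 CPM per kb.

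Of the genes of cluster transcription and export, 5 of 6 were higher in ovaries. Their median log2 fold change of 3.41 includes a fitted value for moon, whose testis counts are at the limit of a count of 0. The gene rhi, which encodes the HP1 relative that marks cluster chromatin, had between 33.6 and 47.2 CPM in ovaries with a median of 41.8, against between 0.893 and 2.74 CPM with a median of 2.15 in testes (log2 fold change 4.45 ± 0.37 SE, edgeR adjusted p = 1.24e-09). Its testis level was low but above the limit of a count of 0 in each library. The gene moon, which encodes a relative of a basal transcription factor that starts cluster transcription, had between 8.22 and 19.8 CPM in ovaries with a median of 10.8. In testes it had no count in 5 libraries and 7 counts, 0.584 CPM, in XYYohio replicate 2 (edgeR adjusted p = 1.81e-08), and no fold is given against values at this limit. The gene boot, which encodes an adaptor for the export of cluster RNA, had between 100 and 393 CPM in ovaries with a median of 126, against between 5.62 and 12.2 CPM with a median of 9.43 in testes (4.08 ± 0.33 SE, edgeR adjusted p = 2.19e-10). The gene del, whose protein joins Rhino to the transcription machinery, had between 168 and 258 CPM in ovaries with a median of 251 and between 54.2 and 74.7 CPM with a median of 69.2 in testes (1.82 ± 0.19 SE, edgeR adjusted p = 1.62e-08). Hel25E, the helicase UAP56 of mRNA export in general, was higher by a log2 fold change of 2.74 ± 0.19 SE (edgeR adjusted p = 1.8e-11).

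The gene cuff, whose protein protects cluster transcripts, was the exception in this role. It had between 5.38 and 18.7 CPM in ovaries with a median of 6.01, against between 7.89 and 31.7 CPM with a median of 12.6 in testes (log2 fold change -1.18 ± 0.58 SE, edgeR adjusted p = 0.0657). The groups overlapped through XXYcongo ovary replicate 2. Without that library the log2 fold change of cuff was -1.52 (edgeR adjusted p = 0.0366), without XYYcongo testis replicate 2 it was -1.38 (edgeR adjusted p = 0.0427), and without XY testis replicate 1 it was -1.40 (edgeR adjusted p = 0.0367). With all libraries it was called lower under 4 of 6 alternatives, among them RLE scaling (-1.65, edgeR adjusted p = 0.0118) and DESeq2 (-1.65, DESeq2 adjusted p = 0.00639).

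The 4 genes of transcriptional silencing split evenly. The gene nxf2, whose protein binds target transcripts together with Panoramix, had between 76.1 and 124 CPM in ovaries with a median of 106, against between 16.5 and 24.9 CPM with a median of 18.6 in testes (log2 fold change 2.44 ± 0.17 SE, edgeR adjusted p = 2.02e-11). The gene arx, which encodes a zinc finger partner of Piwi, had between 6.74 and 14.3 CPM in ovaries and between 1.61 and 2.92 CPM in testes (1.92 ± 0.30 SE, edgeR adjusted p = 4.62e-06). Panx, the gene of Panoramix, had medians of 44.1 CPM in ovaries and 35.3 CPM in testes (0.26 ± 0.25 SE, edgeR adjusted p = 0.364). The gene mael had medians of 38.8 CPM in ovaries and 29.1 CPM in testes (0.40 ± 0.27 SE, edgeR adjusted p = 0.179). With total counts in place of TMM scaling Panx and mael were called higher, with log2 fold changes of 0.79 (edgeR adjusted p = 0.00313) and 0.94 (edgeR adjusted p = 0.00599), and with RLE their signs turned, to -0.21 and -0.06.

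In the nuage 8 of 9 genes were higher in ovaries, in a range of sizes. SoYb, a germline relative of Yb with Tudor and helicase domains, had between 115 and 186 CPM in ovaries with a median of 162, against between 4.74 and 11.1 CPM with a median of 8.92 in testes (log2 fold change 4.21 ± 0.24 SE, edgeR adjusted p = 6.63e-13). Its relative BoYb had between 82.4 and 96.6 CPM in ovaries and between 8.47 and 13.4 CPM in testes (3.05 ± 0.27 SE, edgeR adjusted p = 1.14e-09). The gene tej, which encodes a Tudor protein that helps to assemble the nuage, had between 43.5 and 92.5 CPM in ovaries and between 4.39 and 8.82 CPM in testes (3.38 ± 0.25 SE, edgeR adjusted p = 4.43e-11). None of these 3 overlapped between gonads. The helicase spn-E was higher by 2.53, krimp, which brings AGO3 and Aubergine together, by 1.49, qin by 1.43 and tud by 0.98 on the log2 scale. The gene tapas, which encodes a partner of Tejas and Qin, was called at 0.62 ± 0.18 SE (edgeR adjusted p = 0.00359), and it was the only called gene here that lost its call with RLE scaling and with DESeq2. The gene squ had medians of 44.3 CPM in ovaries and 25.5 CPM in testes and was not called (0.69 ± 0.40 SE, edgeR adjusted p = 0.121). It was called without XXYcongo ovary replicate 1 (0.91, edgeR adjusted p = 0.0429).

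The Yb body and mitochondrial genes held opposite differences. The gene shu, which encodes a cochaperone that loads PIWI proteins, was higher in ovaries by a log2 fold change of 2.83, Gasz, a scaffold on the outer mitochondrial membrane, by 2.70, zuc by 2.22, armi by 1.78 and vret by 1.03. The gene zuc, which encodes the endonuclease that cuts piRNA precursors, had between 13.6 and 36.5 CPM in ovaries with a median of 17.1, against between 2.25 and 6.25 CPM with a median of 4.38 in testes. The gene papi (FBgn0031401, 2L, 2220748 to 2225544, plus strand), which encodes a mitochondrial Tudor protein that serves the trimming of piRNA ends, went the other way. It had between 46.8 and 78.8 CPM in ovaries with a median of 55.8, against between 148 and 212 CPM with a median of 170 in testes (-1.52 ± 0.16 SE, edgeR adjusted p = 2.01e-08), and its median in testes was 3.05 times that in ovaries. The gene fs(1)Yb (FBgn0000928, X, 2720468 to 2724158, plus strand), which encodes the core of the Yb body of somatic gonad cells, had between 3.44 and 8.98 CPM in ovaries with a median of 4.79, against between 7.97 and 16.3 CPM with a median of 14.7 in testes (-1.35 ± 0.33 SE, edgeR adjusted p = 0.000791). These groups overlapped in 1 testis library, XYYcongo replicate 1, and in the XXYcongo ovaries. The gene mino, which encodes a mitochondrial acyltransferase, had medians of 225 CPM in ovaries and 242 CPM in testes (-0.11 ± 0.18 SE, edgeR adjusted p = 0.578), and its sign depended on scaling: -0.58 with DESeq2 and 0.43 with total counts.

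At the piRNA end, Hen1, the methylase of mature piRNAs, was lower in ovaries, and Nbr, the trimming exonuclease, was higher. Hen1 had between 18.4 and 55.8 CPM in ovaries with a median of 36.4, against between 56.3 and 86.5 CPM with a median of 68.8 in testes (log2 fold change -1.02 ± 0.20 SE, edgeR adjusted p = 6.89e-05). The highest ovary value lay just under the lowest testis value. Both arginine methylation genes were higher in ovaries. The gene vls, which encodes a cofactor of the methylase, had between 38.7 and 120 CPM in ovaries and between 5.34 and 9.49 CPM in testes (3.40 ± 0.38 SE, edgeR adjusted p = 3.26e-08), and the methylase gene csul was higher by 2.81 on the log2 scale (edgeR adjusted p = 1.4e-11).

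**Figure D2:**
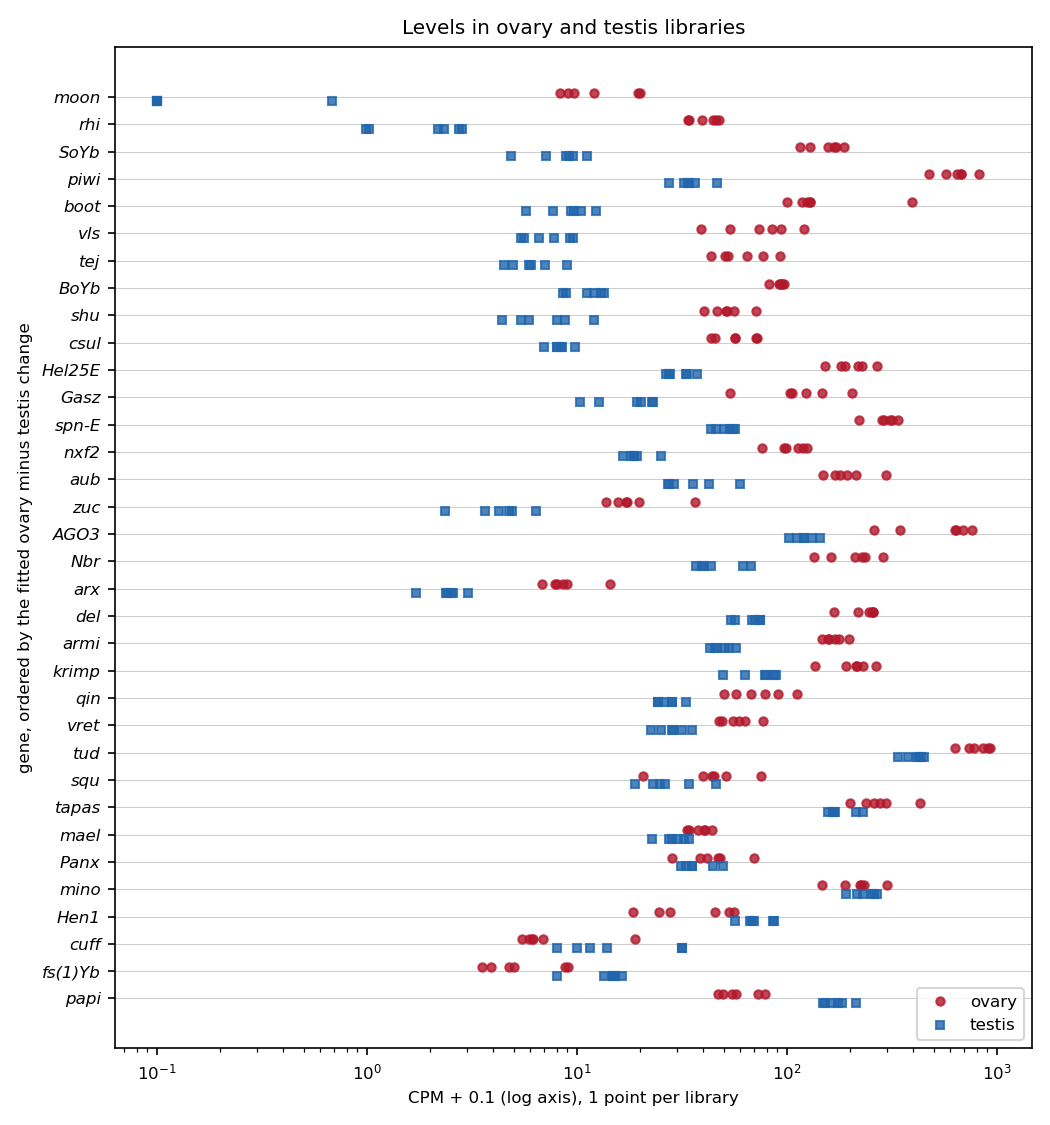
CPM + 0.1 on a log axis in each of 6 ovary libraries (circles) and 6 testis libraries (squares) for the 34 genes, ordered by the fitted difference. Ovary values lie wholly above testis values for 25 genes and wholly below them for papi and Hen1, and the XXYcongo ovary replicate with 393 CPM of boot stands apart from the other 5.

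**Figure D3:**
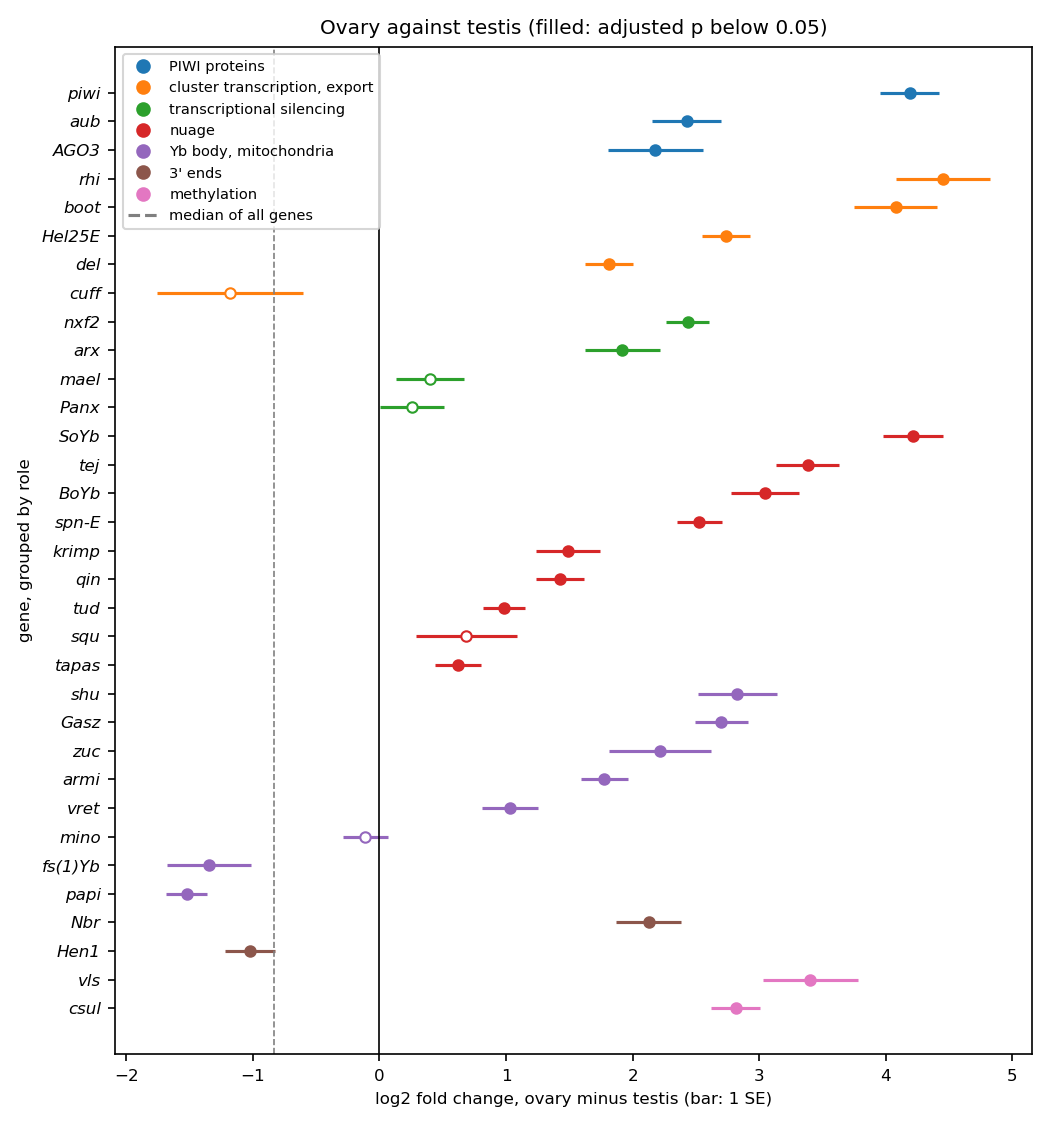
Fitted log2 fold change, ovary minus testis, with bars of 1 SE, for 33 of the 34 genes grouped by role; moon is left out because its testis values are at the limit of a count of 0. Filled points had an edgeR adjusted p below 0.05, and the dashed line marks the median of all genes at -0.83, which moves between -1.26 and -0.32 with the scaling.

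Scaling moved all genes together in this contrast. The median over all genes was -1.26 with RLE and -0.32 with total counts, while the difference between the median of the 34 genes and that of all genes stayed between 2.87 and 3.0 over these and 2 further alternatives. With RLE, total counts, no mitochondrially encoded genes, no filter, DESeq2 or only the libraries of both tissues, 25 of the 26 higher calls and all 3 lower calls held each time. All 29 calls held whichever single library was left out.

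Partners of the pathway outside the set numbered 24 with a row, among them silencing, export and chaperone genes. Of the 24, 21 were higher in ovaries and 1 lower, where 29.6% of all genes tested were higher and 49.5% lower. The largest differences were those of kipf (log2 fold change 4.29 ± 0.30 SE, edgeR adjusted p = 1.62e-11), daed (3.91 ± 0.35 SE, edgeR adjusted p = 9.2e-10) and ova (3.61 ± 0.23 SE, edgeR adjusted p = 4.65e-12), and of the export cofactor Nxt1 (3.82 ± 0.30 SE, edgeR adjusted p = 1.54e-10). The gene kipf, which encodes the zinc finger protein that directs Rhino to clusters, had median levels of 45.6 CPM in ovaries and 2.40 CPM in testes. Trf2, a core transcription factor that works with Moonshiner, was the 1 lower partner (-0.58 ± 0.20 SE, edgeR adjusted p = 0.0109); scaling alone moved the median of all genes from -0.83 with TMM to -0.32 with total counts.

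Both gonads were set against the larval CNS, which has no germline. In ovaries, 32 of the 34 genes were higher than in the CNS and 1 was lower, where 27.9% of all genes tested were higher and 29% lower (edgeR, adjusted p below 0.05). The median log2 fold change was 3.52 over the 34 genes and 0 over all genes. Ovary libraries lay wholly above CNS libraries for 31 genes, again without a count over all genes. Female germline markers summed to between 33.1 and 49.1 CPM in the CNS.

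The core genes of the pathway had few counts in the CNS. The gene piwi had between 0.867 and 3.5 CPM in the CNS, against which its ovary level was higher by a log2 fold change of 8.13 ± 0.29 SE (edgeR adjusted p = 1.74e-15). The gene aub had between 0.72 and 3.27 CPM (6.83 ± 0.34 SE, edgeR adjusted p = 2.37e-13) and AGO3 between 2.0 and 4.5 CPM (7.56 ± 0.49 SE, edgeR adjusted p = 1.37e-11) in the CNS. The gene rhi had no count in 5 CNS libraries and 3 counts in XXYohio replicate 2, and moon had at most 3 counts in any, so no fold is given for either. The gene krimp had between 0.16 and 1.55 CPM in the CNS (7.86 ± 0.35 SE, edgeR adjusted p = 3.33e-14), BoYb between 0.32 and 2.7 CPM (6.27 ± 0.33 SE, edgeR adjusted p = 4.3e-13) and SoYb between 1.68 and 4.47 CPM (5.82 ± 0.26 SE, edgeR adjusted p = 3.78e-14). The lowest value of krimp, 2 counts in XX CNS replicate 2, lay under the 3 counts that a count of 0 allows. The gene fs(1)Yb, with no count in 2 CNS libraries, reached at most 0.52 CPM there, or 6 counts, and no fold is given for it either.

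Other genes of the pathway were abundant in the CNS. Per kilobase of exon, Hel25E had 122, tud 48.0, Nbr 24.2, mino 23.2 and tapas 20.3 CPM per kb by median there, which are the highest of the 34. Hel25E had between 151 and 268 CPM in ovaries with a median of 203 and between 260 and 356 CPM in the CNS, and it was the 1 gene called lower in ovaries (log2 fold change -0.59 ± 0.18 SE, edgeR adjusted p = 0.00695). The gene cuff had a median of 6.01 CPM in ovaries and between 9.92 and 21.7 CPM with a median of 15.7 in the CNS, above every ovary library except XXYcongo replicate 2 (log2 fold change -1.08 ± 0.57 SE, edgeR adjusted p = 0.121). It was called lower in ovaries under 4 of 6 alternatives, among them DESeq2 (-1.34, DESeq2 adjusted p = 0.0383). Levels of del, at between 7.28 and 12 CPM in the CNS, and of zuc, at between 2.86 and 5.98 CPM, were higher in ovaries by 4.66 and 2.24 on the log2 scale. Of the 24 partners, 10 were higher and 4 lower in ovaries than in the CNS, against 27.9% and 29% of all genes.

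In testes, 24 of the 34 genes were higher than in the CNS and 4 lower, where 46.6% of all genes tested were higher and 31.9% lower. The median log2 fold change was 1.51 against 0.49 over all genes. The genes fs(1)Yb (edgeR adjusted p = 3.29e-11) and rhi (edgeR adjusted p = 1.23e-07) were higher, with no fold given against their CNS counts, and moon was near the limit of counting in both tissues. Among the genes with counts in every CNS library, the largest differences were those of krimp (6.37 ± 0.33 SE, edgeR adjusted p = 2.09e-13), AGO3 (5.38 ± 0.45 SE, edgeR adjusted p = 3.8e-10) and aub (4.41 ± 0.32 SE, edgeR adjusted p = 3.05e-11). Next came mael with 4.14, piwi with 3.94 and qin with 3.83 on the log2 scale, and del was higher by 2.84 ± 0.20 SE (edgeR adjusted p = 2.71e-11). Hel25E (-3.33 ± 0.20 SE, edgeR adjusted p = 1.27e-12), csul (-1.70 ± 0.19 SE, edgeR adjusted p = 3.06e-08) and vls (-1.46 ± 0.36 SE, edgeR adjusted p = 0.000789) were lower in testes in every library, and arx was called lower with overlapping libraries. The genes boot, zuc and cuff had medians of 9.43, 4.38 and 12.6 CPM in testes and 9.09, 4.01 and 15.7 CPM in the CNS, and none of them was called, although boot was called lower in testes with total counts (-0.78). Called higher as well, Panx and nxf2 had log2 fold changes of 0.61 and 0.59, which turned to -0.20 and -0.21 with total counts. Panx lost its call when any 1 of 7 libraries was left out (0.50 to 0.61), and shu, called as well, when any 1 of 3 was (0.53 to 0.73). Of the 24 partners, 2 were higher and 19 lower in testes.

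Whole bodies contain the gonads, and their pathway RNA was compared with the gonads and between the sexes. In ovaries, 23 of 34 genes were higher than in female bodies and 0 lower, where 29.2% of all genes tested were higher and 26.4% lower. The median log2 fold change was 0.78, against 0 over all genes, and 12 genes were at least 2-fold higher, against 14.7% of all genes. Ovary libraries lay wholly above female body libraries for 11 genes, a count not made over all genes. Of the 24 partners, 17 were higher and 0 lower in ovaries. The count of 23 was 13 with RLE, 14 with DESeq2 and 9 with the libraries of both tissues alone, and 9 of the 23 were called under each of 6 alternatives.

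The genes of transcriptional silencing were all 4 higher in ovaries than in female bodies. The gene arx had between 6.74 and 14.3 CPM in ovaries, against between 1.38 and 2.49 CPM in female bodies (log2 fold change 2.17 ± 0.30 SE, edgeR adjusted p = 2.85e-06). The gene mael had between 33.2 and 43.9 CPM in ovaries, against between 9.1 and 27.0 CPM in female bodies (1.38 ± 0.27 SE, edgeR adjusted p = 0.000203). The cochaperone gene shu had between 40.0 and 70.9 CPM in ovaries, against between 11.5 and 33.3 CPM in female bodies (1.42 ± 0.29 SE, edgeR adjusted p = 0.000281). None of these groups overlapped. Hel25E was higher by 1.35, nxf2 by 1.14, armi by 1.13, SoYb by 1.12, spn-E by 1.08 and piwi by 1.05 on the log2 scale.

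Other core genes differed less between ovaries and female bodies. The gene aub had between 148 and 297 CPM in ovaries with a median of 186, against between 80.7 and 162 CPM with a median of 105 in female bodies (log2 fold change 0.80 ± 0.26 SE, edgeR adjusted p = 0.0124). The gene del had between 168 and 258 CPM in ovaries with a median of 251, against between 76.4 and 216 CPM with a median of 138 in female bodies (0.71 ± 0.19 SE, edgeR adjusted p = 0.0027). Levels of fs(1)Yb lay between 3.44 and 8.98 CPM in ovaries and between 1.61 and 3.70 CPM in female bodies (1.03 ± 0.34 SE, edgeR adjusted p = 0.0129). The groups overlapped for each of these 3 genes, and all 3 were called higher. These calls depended on the settings: aub and fs(1)Yb were each called under 1 of 6 alternatives and del under 2 of 6. The genes moon, with medians of 10.8 CPM in ovaries and 7.29 CPM in female bodies (0.61 ± 0.43 SE, edgeR adjusted p = 0.253), and cuff, with medians of 6.01 and 2.73 CPM (0.50 ± 0.58 SE, edgeR adjusted p = 0.543), were not called.

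For several genes no difference between ovaries and whole females was called. The gene krimp had medians of 214 CPM in ovaries and 196 CPM in female bodies (0.20 ± 0.25 SE, edgeR adjusted p = 0.567), vls 79.3 and 80.8 CPM (0.19 ± 0.34 SE, edgeR adjusted p = 0.748) and papi 55.8 and 51.6 CPM (0.25 ± 0.16 SE, edgeR adjusted p = 0.205). With RLE these differences were -0.19 for krimp, -0.21 for vls and -0.15 for papi. AGO3 had medians of 633 CPM in ovaries and 421 CPM in female bodies (0.55 ± 0.36 SE, edgeR adjusted p = 0.219). Its call changed with 1 library: without XX female body replicate 1 its log2 fold change was 1.07 (edgeR adjusted p = 0.0123). Likewise zuc was called without XX or XXYcongo female body replicate 1 (1.10 each), and squ without XX female body replicate 1 (1.41), XXYcongo female body replicate 1 (1.12) or XXYcongo ovary replicate 1 (0.97). Single libraries also decided the calls of Hen1, mino and tej, which were called higher when any 1 of 4 libraries was left out for Hen1 (0.52 to 0.56), any 1 of 4 for mino (0.45 to 0.47), and XXYcongo ovary replicate 1 for tej (0.57). The call of rhi, at 0.78 ± 0.31 SE (edgeR adjusted p = 0.0399), was lost when any 1 of 10 libraries was left out (0.70 to 0.79). With all libraries, rhi was called under 1 of 6 alternatives.

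**Figure D4:**
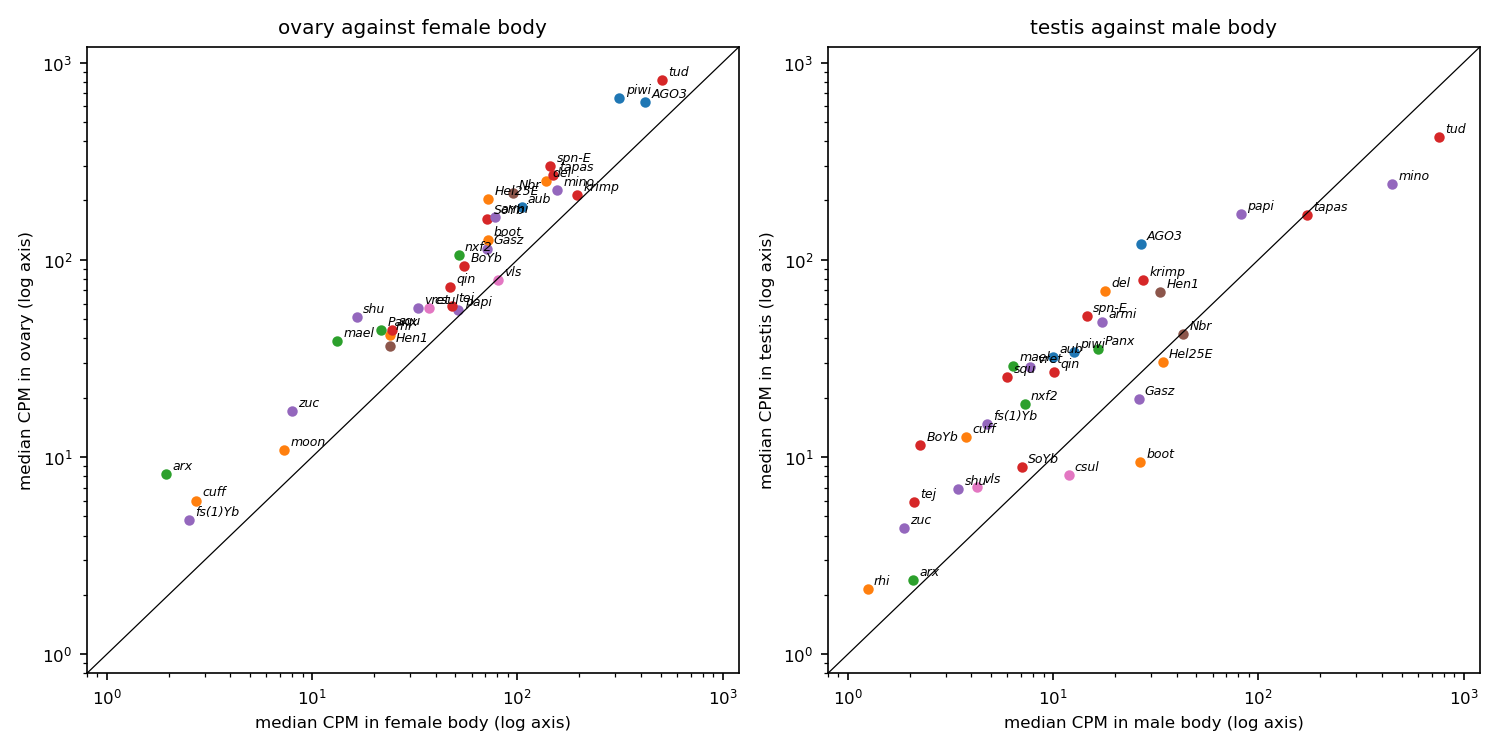
Median CPM over 6 libraries in ovary against female body (left, 34 genes) and in testis against male body (right, 33 genes, without moon, whose medians are 0), both axes logarithmic, with the line of equal levels. In females the genes lie above the line apart from vls, at a ratio of up to 4.23 for arx. In males the genes below the line include boot, mino and tud, and those above it include papi, AGO3 and krimp.

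In testes, 21 of the 34 genes were higher than in male bodies and 5 lower, where 36.7% of all genes tested were higher and 38.5% lower, and all 21 were at least 2-fold higher, against 30% of all genes. The median log2 fold change was 1.23, against -0.01 over all genes. The PIWI genes were all higher: AGO3 had between 102 and 144 CPM in testes, against between 18.0 and 76.9 CPM in male bodies (log2 fold change 1.94 ± 0.38 SE, edgeR adjusted p = 0.000116). The gene aub was higher by 1.94 and piwi by 1.59. The genes squ (2.23 ± 0.44 SE, edgeR adjusted p = 0.000109), BoYb (2.21 ± 0.30 SE, edgeR adjusted p = 1.28e-06) and mael (2.15 ± 0.29 SE, edgeR adjusted p = 1.44e-06) had the largest differences. The gene cuff was higher by 1.91, del by 1.89, fs(1)Yb by 1.67 and zuc by 1.26 on the log2 scale. The gene rhi, at a median of 2.15 CPM in testes and 1.25 CPM in male bodies, was not called (0.84 ± 0.43 SE, edgeR adjusted p = 0.0829) and was called under 5 of 6 alternatives, among them DESeq2 (1.25, DESeq2 adjusted p = 0.00128). It had no count in XY male body replicate 1, and it was called without XY male body replicate 2 (2.83), XYYohio testis replicate 2 (1.04) or XY testis replicate 2 (1.05). The call of zuc was lost without XYYohio male body replicate 2 (1.10), XY male body replicate 2 (0.97) or XYYohio testis replicate 1 (1.06).

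The gene boot was lower in testes, with between 5.62 and 12.2 CPM against between 16 and 39.1 CPM in male bodies (log2 fold change -1.56 ± 0.31 SE, edgeR adjusted p = 0.000118). Of the 5 lower genes it was the 1 called under each of the 6 alternatives. The genes mino and tud were lower as well, with the libraries apart, by log2 fold changes of -0.98 and -0.90, and without mitochondrially encoded genes these were -0.09 and -0.01. The remaining pair, Gasz (-0.57) and csul (-0.49), turned positive in that setting, to 0.32 and 0.40. With that setting the median of all genes was 0.85, against -0.01 with all genes kept. Of the 24 partners, 8 were higher and 8 lower in testes, against 36.7% and 38.5% of all genes.

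Female bodies had 25 of the 34 genes higher than male bodies and 4 lower, where 13.6% of all genes tested were higher and 61.8% lower. The median log2 fold change was 2.16, against -1.26 over all genes. Both depended on scaling: they were 2.49 and -0.92 with RLE, and 3.1 and -0.33 without mitochondrially encoded genes. The difference between them stayed between 3.35 and 3.43 over these settings, total counts and both tissues alone. The log2 fold change of piwi, given below, lay between 5.08 and 5.67 under the alternatives. All 25 were at least 2-fold higher, against 8.78% of all genes, and all 25 were called in each of the 6 alternatives and whichever single library was left out. The gene piwi had between 189 and 422 CPM in female bodies, against between 7.2 and 14.0 CPM in male bodies (4.73 ± 0.24 SE, edgeR adjusted p = 5.84e-13). The gene aub had between 80.7 and 162 CPM in female bodies, against between 4.51 and 17.4 CPM in male bodies (3.57 ± 0.29 SE, edgeR adjusted p = 5.78e-10). AGO3 had between 102 and 781 CPM in female bodies, against between 18.0 and 76.9 CPM in male bodies (3.57 ± 0.40 SE, edgeR adjusted p = 8.36e-08). The groups were apart for all 3 genes.

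Other genes had sex differences as large. The genes rhi (4.51 ± 0.40 SE, edgeR adjusted p = 6.07e-09), BoYb (4.50 ± 0.31 SE, edgeR adjusted p = 3.39e-11), tej (4.33 ± 0.27 SE, edgeR adjusted p = 9.86e-12) and vls (3.95 ± 0.40 SE, edgeR adjusted p = 1.36e-08) were higher in female bodies. The gene moon had between 5.57 and 18.6 CPM in female bodies and at most 2 counts in any male body. The gene del was higher by 3.00 and zuc by 2.73, while cuff (0.22 ± 0.62 SE, edgeR adjusted p = 0.759) and fs(1)Yb (-0.71 ± 0.35 SE, edgeR adjusted p = 0.0691) were not called. Without XXYcongo female body replicate 2, without XXYohio female body replicate 2 or without XY male body replicate 1, fs(1)Yb was called lower, at -0.93, -0.90 and -0.89, while its sign turned under 4 of 6 alternatives (0.01 to 0.24). The gene mino was lower in female bodies in every library (between 141 and 219 CPM, against between 395 and 600 CPM in male bodies, -1.45 ± 0.18 SE, edgeR adjusted p = 3.22e-07). The lower calls of papi (-0.73), tud (-0.59) and Hen1 (-0.45) changed sign without mitochondrially encoded genes, to 0.22, 0.37 and 0.51. Panx was not called and was called higher under each of the 6 alternatives (0.69 to 1.30). Of the 24 partners, 16 were higher in female bodies and 0 lower, against 13.6% and 61.8% of all genes.

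The larval CNS had 3 genes higher than female bodies and 29 lower, where 31.7% of all genes tested were higher and 31.3% lower. Its median log2 fold change was -2.43, against 0 over all genes. The higher ones were Hel25E (1.94 ± 0.18 SE, edgeR adjusted p = 7.19e-09), cuff (1.58 ± 0.59 SE, edgeR adjusted p = 0.0236) and arx (1.05 ± 0.30 SE, edgeR adjusted p = 0.00395). The gene arx had between 2.6 and 5.87 CPM in the CNS, against between 1.38 and 2.49 CPM in female bodies. Levels of cuff overlapped between the groups, and its call was lost when any 1 of 5 libraries was left out (1.29 to 1.57). The genes krimp (-7.66 ± 0.34 SE, edgeR adjusted p = 1.12e-13), piwi (-7.08 ± 0.27 SE, edgeR adjusted p = 1.34e-14), AGO3 (-7.01 ± 0.48 SE, edgeR adjusted p = 5.48e-11) and aub (-6.04 ± 0.33 SE, edgeR adjusted p = 2.15e-12) had the largest deficits among genes with counts in every CNS library. Levels of del were lower in the CNS by a log2 fold change of -3.95 and those of zuc by -1.49. Of the 24 partners, 13 were higher in the CNS and 5 lower.

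The comparison for which the series was designed, an added Y against none, called 0 of the 34 genes in any tissue. Each of 5 tissues was tested for XXYohio or XYYohio, for XXYcongo or XYYcongo, for both together against the control, and for Ycongo against Yohio, 20 contrasts in all, with 34 genes tested in female bodies and ovaries, 33 in testes, 32 in male bodies and 31 in the CNS. By edgeR and by DESeq2, 0 of these genes had an adjusted p below 0.05, while edgeR without a filter on low counts called boot higher and Hen1 lower in XXYcongo ovaries against XX. Of all genes tested, edgeR called 0% in each of the 4 contrasts in female bodies, male bodies and testes. In ovaries it called 0.215% with either added Y, 0.0113% with XXYohio, 0.283% with XXYcongo and 0.0113% for XXYcongo against XXYohio, and in the CNS 0.0403%, 0.0403%, 0.0101% and 0.0302% in the same order. Of the genes, 29 to 34 had an adjusted p in 7 of the 10 comparisons of the authors' deposited tables, and 23 in XXYohio female bodies, 5 in XYYcongo and 3 in XYYohio male bodies. Of these values in the authors' deposited tables, 0 were below 0.05. The authors' names of these comparisons write cs where Yohio stands here, and cs was taken to be the same Y. Comparisons within a tissue share their control libraries, so their values are given side by side and are not independent.

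In female bodies most of the genes had higher values with an added Y. With either added Y against XX, 31 of 34 lay above 0, against 49.1% of all genes, and the median log2 fold change was 0.48, against -0.01. At an unadjusted p below 0.05, 4 were higher, against 2.74% of all genes, and 0 lower, against 6.74%. XXYohio had 27 genes above 0 with a median of 0.43, and XXYcongo 32 with a median of 0.42. Female germline markers moved with this: they summed to between 4020 and 6810 CPM in XXYohio, between 5400 and 5950 CPM in XXYcongo and between 2440 and 3900 CPM in XX bodies. Muscle markers summed to between 727 and 1350 CPM in XXYohio, between 1430 and 1750 CPM in XXYcongo and between 2690 and 4380 CPM in XX, and the part of tissue shares in the values was not tested.

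The gene krimp had 242 and 246 CPM in XXYohio bodies, 199 and 193 CPM in XXYcongo bodies and 136 and 109 CPM in XX bodies, without overlap (both added Y chromosomes against XX, log2 fold change 0.89 ± 0.33 SE, edgeR adjusted p = 0.523). The other 3 at that level were Gasz, BoYb and nxf2. Gasz had 79.2 and 72.1 CPM in XXYohio, 70.8 and 79.9 CPM in XXYcongo and 47.0 and 41.2 CPM in XX bodies. BoYb had 56.7 and 83.1 CPM in XXYohio, 53.5 and 70.1 CPM in XXYcongo and 34.6 and 40.0 CPM in XX bodies. For krimp, Gasz and BoYb each added-Y library lay above both XX libraries. The gene nxf2 had 57.9 and 46.0 CPM in XXYohio, 59.7 and 60.0 CPM in XXYcongo and 39.8 and 27.4 CPM in XX bodies, with the same order. The gene rhi had 30.9 and 29.1 CPM in XXYohio, 23.9 and 23.9 CPM in XXYcongo and 18.4 and 18.4 CPM in XX bodies. The gene piwi, at 325 and 348 CPM in XXYohio, 422 and 295 CPM in XXYcongo and 304 and 189 CPM in XX bodies, overlapped between groups. The cluster gene del had 216 and 126 CPM in XXYohio, 183 and 146 CPM in XXYcongo and 131 and 76.4 CPM in XX bodies, aub 92.1 and 117 CPM, 162 and 90.4 CPM, and 138 and 80.7 CPM, and fs(1)Yb 1.86 and 3.70 CPM, 1.61 and 3.54 CPM, and 2.14 and 2.91 CPM in the same groups, each with overlap. The gene moon stood out in 1 library, XXYohio replicate 2, at 18.6 CPM, against between 5.57 and 8.66 CPM in the other 5.

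In the ovary values lay on both sides of 0. With either added Y, 21 of 34 genes lay above 0, against 53.7% of all genes, and the median was 0.04 for the 34 genes and for all genes. At an unadjusted p below 0.05, 0 were higher and 2 lower, against 3.28% higher and 6.71% lower of all genes. Hen1 had 24.6 and 45.2 CPM in XXYohio, 27.7 and 18.4 CPM in XXYcongo and 55.8 and 53.1 CPM in XX ovaries (log2 fold change -0.92 ± 0.30 SE, edgeR adjusted p = 0.399). Gasz had 106 and 123 CPM in XXYohio, 103 and 53.3 CPM in XXYcongo and 146 and 203 CPM in XX ovaries (-0.85 ± 0.31 SE, edgeR adjusted p = 0.432). In both genes each added-Y library lay below both XX libraries. Without XXYcongo ovary replicate 1, which leaves a lone XXYcongo library that is assumed to vary like the other groups, both were called lower (Hen1 -1.14, edgeR adjusted p = 0.0269, and Gasz -1.18, edgeR adjusted p = 0.0103). Female germline markers summed to between 4530 and 5830 CPM in XXYohio, between 5200 and 6550 CPM in XXYcongo and between 6500 and 8400 CPM in XX ovaries.

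The 2 XXYcongo ovary libraries differed from each other. The gene boot had 129 and 393 CPM in XXYcongo, 118 and 124 CPM in XXYohio and 128 and 100 CPM in XX ovaries (XXYcongo against XX, log2 fold change 1.15, edgeR adjusted p = 0.36), and replicate 2 of XXYcongo alone stood apart from the other 5. The gene cuff had 6.05 and 18.7 CPM, zuc 13.6 and 36.5 CPM, squ 20.6 and 75.2 CPM, vls 38.7 and 120 CPM and AGO3 261 and 761 CPM in the same XXYcongo libraries. At an unadjusted p below 0.05, 4 genes were higher in XXYcongo than in XXYohio ovaries, against 4.2% of all genes: boot, aub, fs(1)Yb and qin. The last 2 had the smallest p-values, fs(1)Yb at 8.98 and 8.70 CPM against 3.44 and 3.78 CPM (log2 fold change 1.27 ± 0.41 SE, edgeR adjusted p = 0.558), and qin, at 112 and 90.1 CPM against 50.0 and 57.0 CPM (0.91 ± 0.29 SE, edgeR adjusted p = 0.558).

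**Figure D5:**
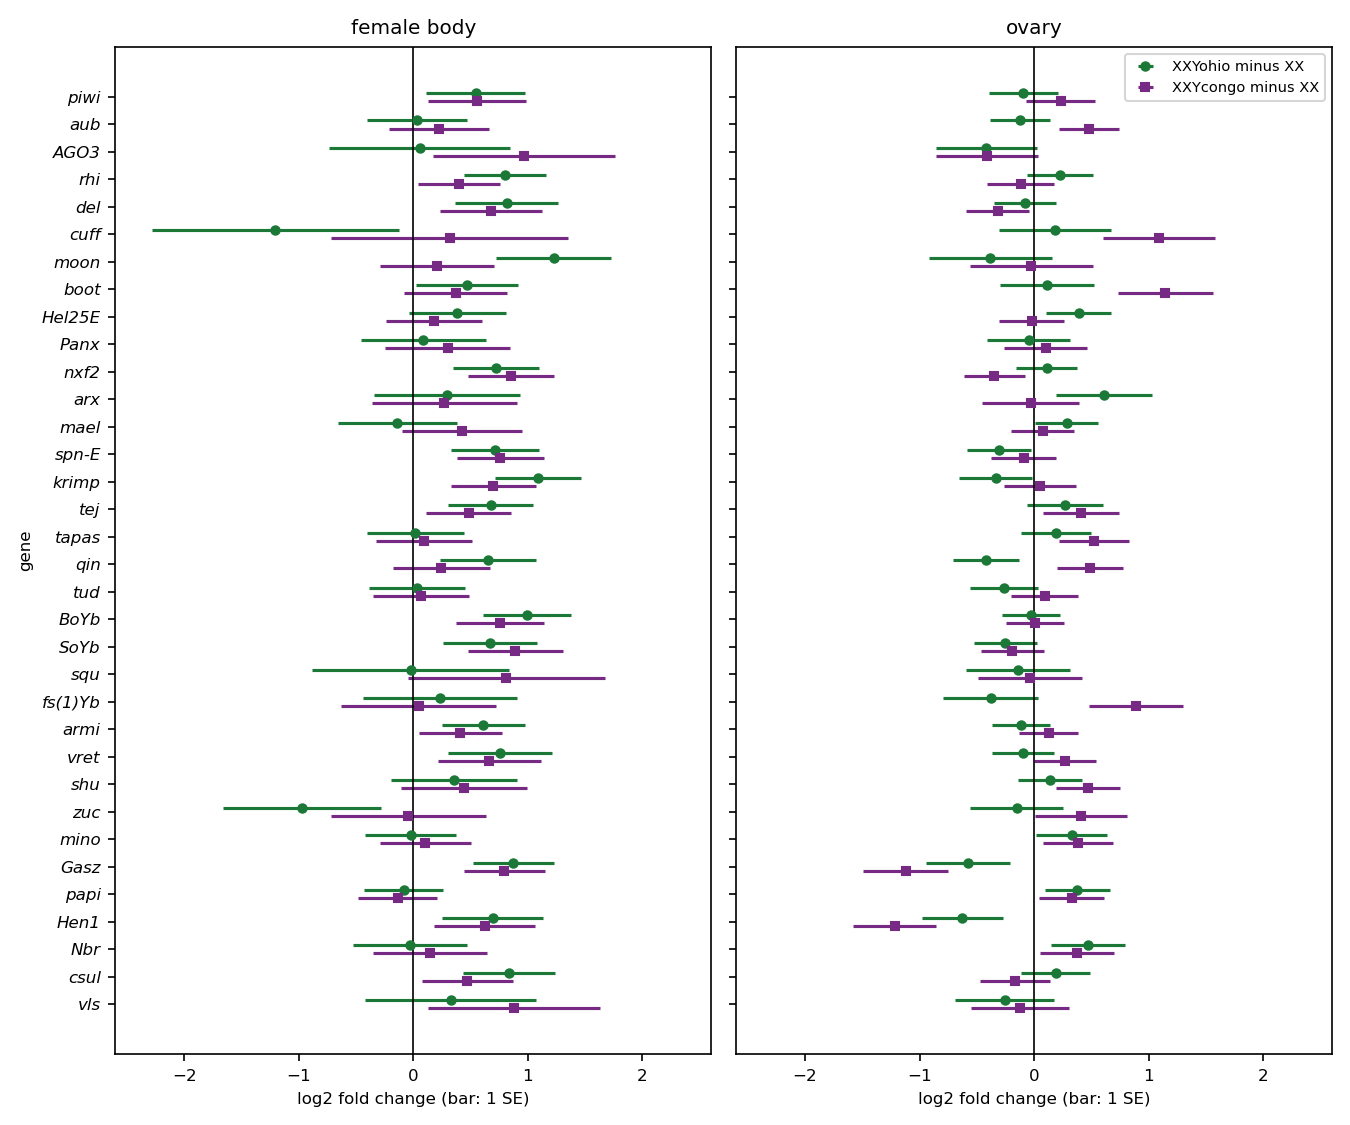
Fitted log2 fold change of each of the 34 genes with an added Yohio (circles) or Ycongo (squares) against XX, in female bodies (left) and ovaries (right), with bars of 1 SE from 2 libraries a group. Most points lie right of 0 in female bodies, those of Gasz and Hen1 lie left of 0 in ovaries, and no gene had an edgeR adjusted p below 0.05.

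The difference between the female body and the ovary was tested directly. Of the 34 genes, 0 were called for either Y in 12-library fits by edgeR, which called 0% of all genes, and 5 were higher at an unadjusted p below 0.05 for Yohio (against 5.86% of all genes) and 4 for Ycongo (against 6.27%). The largest was that of Gasz with Ycongo, at 1.99 ± 0.49 SE on the log2 scale (edgeR adjusted p = 0.393), followed by Hen1 at 1.90 ± 0.58 SE (edgeR adjusted p = 0.393). For Yohio, krimp had 1.43 ± 0.44 SE (edgeR adjusted p = 0.58) and Gasz 1.46 ± 0.49 SE (edgeR adjusted p = 0.58). Between female and male bodies, 0 genes were called for either Y, where 0% of all genes were, and 3 were higher at an unadjusted p below 0.05 for Yohio, against 1.53% of all genes, and 2 for Ycongo, against 2.13%.

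In testes 0 of 33 genes had an unadjusted p below 0.05 in any of the 4 contrasts, where 2.37% of all genes had one with either added Y, and the median log2 fold change with either added Y was -0.03, against -0.01 over all genes. The gene piwi had 33.7 and 34.2 CPM in XYYohio, 36.3 and 32.4 CPM in XYYcongo and 27.4 and 46.3 CPM in XY testes, AGO3 120 and 131 CPM, 102 and 112 CPM, and 120 and 144 CPM in the same groups. In male bodies krimp had 51.2 and 42.8 CPM in XYYcongo, 15.8 and 26.2 CPM in XYYohio and 18.8 and 28.5 CPM in XY (XYYcongo against XY, log2 fold change 1.01 ± 0.42 SE, edgeR adjusted p = 0.656). Both XYYcongo libraries lay above the other 4, and krimp was the 1 gene of 32 higher at an unadjusted p below 0.05, against 3.65% of all genes. In the CNS the 1 gene of 31 higher at that level with either added Y, against 2.35% of all genes, was nxf2, at 18.5 and 12 CPM in XXYohio, 15.3 and 12.2 CPM in XXYcongo and 10.8 and 8.88 CPM in XX (both against XX, 0.58 ± 0.25 SE, edgeR adjusted p = 0.799).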

How the data were processed

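The authors deposited raw read counts per gene for each of the 30 libraries, and tables per comparison with log2 fold changes and an adjusted p-value, per the file headers; 10 such tables were read and 5 that combine comparisons were not used. Poly(A) RNA was prepared with the PrepX kit, per the labels' protocols. Trim Galore, Bowtie2, SAMtools, DESeq2 1.8.1 and R 3.2.3 were used, per the submitters' processing notes. Neither build nor strand setting is given in the sources used here, and reads of overlapping genes cannot be told apart. No sequence tables were used here. Symbols came from a table that matched 16649 of 16868 identifiers, and positions and exon lengths from Ensembl BDGP6.54.

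Counts were tested with edgeR 4.0.16 in R 4.3.3: TMM scaling, filterByExpr at a minimum count of 10, quasi-likelihood tests and Benjamini-Hochberg adjustment over all genes of a fit, called at 0.05. Tissue contrasts came from 1 fit of 30 libraries with 15 group means, averaged over the 3 genotypes, and added-Y contrasts from a fit of 6 libraries per tissue. Fits were tested on simulated data. A standard error is the absolute log2 fold change over the root of F. For 2 libraries against 2, exact permutation cannot give a two-sided p under 0.333, and it was left out. No 2 replicates agreed within sampling noise. DESeq2 1.42.0, RLE, total counts, no filter, no mitochondrially encoded genes, both tissues alone, control genotypes only, a replicate block and leaving out each library were tried as alternatives.

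Earlier results of these data were known when the 35 genes, the role, partner and marker lists and the naming rule were set. The rule allows full values for up to 8 called genes per direction without overlap between groups and, always, for piwi, aub, AGO3, rhi, del, cuff, moon, fs(1)Yb and zuc; not all of these are printed in every contrast. Other genes named without a call, such as Hen1, Gasz and krimp in added-Y contrasts, were chosen after their values were seen. The gene sov, 1 of 25 partners, was not analysed here.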

Additional observations from a re-analysis of the deposited data

How the results depend on the processing

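Depth limits moon in testes and rhi, moon and fs(1)Yb in the CNS, which had 3 counts or fewer in most libraries. With 2 libraries a group, added-Y differences have 3 residual degrees of freedom. Replicate numbers did not pair the libraries throughout, although some same-numbered libraries of female and male bodies shared deviations. Correlations of deviations of same-numbered libraries spanned 0.05 to 0.18 in ovaries, -0.11 to 0.52 in female bodies and -0.18 to 0.10 in the CNS. They spanned -0.35 to 0.56 in male bodies and -0.49 to 0.05 in testes. With a replicate block the counts were 26 higher and 3 lower for ovary minus testis, 32 and 1 for ovary minus CNS, 24 and 4 for testis minus CNS, 23 and 0 for ovary minus female body, 21 and 5 for testis minus male body, 25 and 3 for female minus male body, 3 and 29 for CNS minus female body, and 0 for each added-Y contrast.

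Counts that moved by over 1.5 times were these, and the cause was not tested. Lower in ovary minus testis were 5 with RLE and 5 with DESeq2, against 3, with cuff and mino added. Lower in ovary minus CNS were 2 with RLE, total counts, DESeq2 or both tissues alone and 0 with control genotypes only, which leaves fewer libraries, against 1. Lower in testis minus CNS were 7 with total counts and 2 with control genotypes only, against 4. Higher in ovary minus female body were 13 with RLE, 14 without a filter, 14 with DESeq2 and 9 with both tissues alone, against 23. Lower in testis minus male body were 3 with RLE, total counts, no filter, DESeq2, both tissues alone or control genotypes only, and 1 without mitochondrially encoded genes, against 5. Lower in female minus male body were 2 with RLE or DESeq2 and 1 with total counts, no mitochondrially encoded genes, no filter, both tissues alone or control genotypes only, against 4. XXYcongo minus XX in ovaries had 1 higher (boot) and 1 lower (Hen1) without a filter, against 0.

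Log2 fold changes of single genes that changed sign were the following. In ovary minus testis they were those of mael (-0.06) and Panx (-0.21) with RLE and with DESeq2, and of mino (0.43) with total counts. In testis minus CNS they were those of tud with RLE (0.19), DESeq2 (0.19) and no mitochondrially encoded genes (0.04), of Panx (-0.20), nxf2 (-0.21), boot (-0.78), cuff (-0.71) and zuc (-0.79) with total counts, of boot (-0.15), cuff (-0.06) and zuc (-0.16) with no filter, of boot (-0.11), zuc (-0.04) and Nbr (0.07) with control genotypes only, and of zuc (-0.01) with both tissues alone. In ovary minus female body with RLE, and to the same 2 decimals with DESeq2, they were those of vls (-0.21), mino (-0.03), papi (-0.15) and krimp (-0.19). There they were also those of vls (-0.06) and krimp (-0.04) without mitochondrially encoded genes, of vls (-0.10), papi (-0.04) and krimp (-0.08) with no filter, of vls (-0.31), mino (-0.13), papi (-0.25), Hen1 (-0.08), tej (-0.04) and krimp (-0.30) with both tissues alone, and of papi (-0.09) and cuff (-0.25) with control genotypes only. In CNS minus female body they were those of tud (0.08) with total counts and Panx (-0.04) with both tissues alone.

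In testis minus male body the sign changed for Hel25E and arx with RLE (0.26 and 0.39), total counts (0.04 and 0.20), no mitochondrially encoded genes (0.72 and 0.85), no filter (0.31 and 0.45) and DESeq2 (0.26 and 0.40), for arx with both tissues alone (0.0029), and for csul (0.40) and Gasz (0.32) without mitochondrially encoded genes. In female minus male body it changed for tapas and arx with RLE (0.18 and 0.08), total counts (0.50 and 0.40), no mitochondrially encoded genes (0.78 and 0.67), no filter (0.65 and 0.55), DESeq2 (0.18 and 0.09) and both tissues alone (0.73 and 0.62). It also changed for fs(1)Yb, tud and Hen1 with total counts (0.01, 0.07 and 0.20), no mitochondrially encoded genes (0.24, 0.37 and 0.51), no filter (0.12, 0.24 and 0.38) and both tissues alone (0.18, 0.31 and 0.46), and for papi in the last 3 of these (0.22, 0.10 and 0.17). Over the 34 genes in the tissue contrasts, moon only where it has a fold, and the added-Y values with an unadjusted p below 0.05, 1880 other values kept direction and call under these alternatives, 110 lost the call and 54 gained it.

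Leaving out 1 library gave 26 to 27 higher and 3 to 4 lower in ovary minus testis, 32 and 1 in ovary minus CNS, 22 to 24 and 3 to 4 in testis minus CNS, 21 to 26 and 0 in ovary minus female body, 20 to 22 and 3 to 5 in testis minus male body, 25 and 3 to 5 in female minus male body, and 2 to 3 and 28 to 29 in CNS minus female body. Without XY testis replicate 2, lower calls in testis minus male body were 3. In ovaries without XXYcongo replicate 1, 0 to 2 genes were higher (boot 1.69 and cuff 1.63) and 0 to 2 lower (Gasz -1.80 and Hen1 -1.65) in XXYcongo minus XX, 0 to 2 were lower with either added Y, and 0 to 1 were higher in XXYcongo minus XXYohio (boot 1.57; without XXYcongo replicate 2, qin 1.14). All other added-Y counts stayed at 0. Leaving out 1 library turned the sign of 12 uncalled values, whose ranges were -0.0047 to 0.43 for Panx in ovary minus testis; -0.09 to 0.04 for tud, -0.20 to 0.18 for boot, -0.34 to 0.33 for cuff and -0.18 to 0.21 for zuc in testis minus CNS; -0.16 to 0.67 for vls in ovary minus female body; -0.03 to 0.12 for tapas, -0.14 to 0.20 for Nbr, -0.22 to 0.28 for arx and -0.04 to 0.29 for SoYb in testis minus male body; and -0.46 to 0.04 for arx and -0.58 to 1.16 for cuff in female minus male body.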

Other observations

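A few of the genes varied between the 2 libraries of a group far more than the others. The higher of the 2 libraries was a median of 1.43 times the lower one in female bodies and 1.25 times in ovaries, over 102 pairs of a gene and a group each. In female bodies 10 of the ratios were above 3, and they belonged to cuff, squ, AGO3, vls and zuc. The gene cuff had 14.8 and 1.96 CPM in XXYcongo bodies, 2.74 and 2.73 CPM in XXYohio bodies and 12.2 and 1.25 CPM in XX bodies. The gene zuc had 22.1 and 6.97 CPM in XXYcongo, 5.59 and 8.77 CPM in XXYohio and 22.9 and 7.23 CPM in XX bodies. In both genes replicate 1 of XXYcongo and of XX stood apart from the other 4 libraries.

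AGO3 and vls showed another order of the same libraries. AGO3 had 442 and 146 CPM in XXYohio bodies, 781 and 399 CPM in XXYcongo bodies and 506 and 102 CPM in XX bodies. The gene vls had 100 and 22.4 CPM in XXYohio, 112 and 79.2 CPM in XXYcongo and 82.4 and 22.9 CPM in XX bodies. The low libraries were XXYohio replicate 2 and XX replicate 2, whose mitochondrial shares of counts were 5.21% and 9.26%, against between 25.17% and 33.49% in the other 4. In male bodies AGO3 was highest, at 76.9 CPM, in XYYcongo replicate 2, which had a mitochondrial share of 40.11%, against between 18.0 and 30.5 CPM and between 9.37% and 15.71% in the other 5. In ovaries AGO3 had 345 and 636 CPM at shares of 4.82% and 6.61% in XXYohio, 261 and 761 CPM at 1.81% and 4.17% in XXYcongo, and 630 and 692 CPM at 12.79% and 8.18% in XX. There the lowest value went with the lowest share, and the highest value with the second lowest. Whether the mitochondrial share has a part in these values was not tested.

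The genes cuff and squ were high together in testes as well, in XYYcongo replicate 1 and XY replicate 2. The gene cuff had 31.7 and 31.6 CPM in these, against between 7.89 and 13.8 CPM in the other 4, and squ 46.0 and 34.0 CPM, against between 18.7 and 26.2 CPM. Nbr followed with 61.5 and 67.6 CPM, against between 36.6 and 43.6 CPM, while krimp was lowest in the same libraries, at 49.6 and 63.0 CPM, against between 78.2 and 88.1 CPM. The pattern was not particular to these genes. The same libraries were highest for aub, at 42.6 and 59.7 CPM, against between 27.1 and 35.5 CPM. They were highest for Panx as well, at 49.4 and 44.2 CPM, against between 31.1 and 35.3 CPM. The gene del was lowest in them, at 56.4 and 54.2 CPM, against between 68.0 and 74.7 CPM. The libraries belong to different genotypes.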
